A study of Mus musculus with 8 samples.

Results

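Distal intergenic loci are stretches of transcribed sequence that lie outside annotated genes and away from the coding genes around them. Here they were taken from a transcript assembly of nuclear RNA from HL1 cells, as assembled loci on autosomes that overlapped no GENCODE M21 gene on either strand and lay more than 10 kb from every protein-coding gene (mouse build mm10). They were also selected on their measured values, since a locus had to be above 0 normalized counts in at least 1 of the 6 short-read libraries. The rule gave 1045 loci of 20637 assembled loci and of 65265 features in the whole table, and 28 further loci met the positional rule but were at 0 in all 6 libraries. Of these 1045 loci, 241 overlapped a gene of the RefSeq annotation, so the word unannotated holds for GENCODE M21 only.

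HL1 is an immortal line derived from the AT-1 mouse atrial tumor lineage and was grown in Claycomb medium with serum and norepinephrine, so it models an atrial cardiomyocyte that still divides, with no genetic change or treatment between the groups. Nuclei were extracted with urea and detergent, the soluble part was taken as nucleoplasm and the pellet as chromatin, and ERCC standards were added to each fraction before RNA was purified. After depletion of ribosomal RNA, stranded libraries with 50 bp single-end reads were made from 3 independent cultures, which gave 3 chromatin and 3 nucleoplasm libraries. Another 2 chromatin libraries were sequenced as long nanopore reads. The names of the 3 nucleoplasm libraries call them nucleoplasm while their fraction entry reads chromatin, and they were used as nucleoplasm, as named.

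Nuclear RNA that stays on chromatin includes nascent transcripts, enhancer-derived RNA and long noncoding RNA that is retained near its site of synthesis. Spliced messenger RNA is released into the nucleoplasm on its way to the cytoplasm. Transcription far from genes often starts at enhancers, repeats or unannotated promoters, and its products are usually unstable and low in abundance.

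The fractions were first checked on RNA of known place. Malat1, a nuclear-retained long noncoding RNA, measured 1811938, 1629137 and 1443666 normalized counts in the chromatin libraries and 117007, 112363 and 115765 in the nucleoplasm libraries (log2 fold change 3.82 ± 0.20 SE, limma adjusted p = 3.84e-05). The messenger RNA of the glycolytic enzyme Gapdh measured 2718, 3842 and 2254 in chromatin and 12858, 14619.8 and 9265 in nucleoplasm (log2 fold change -2.07 ± 0.25 SE, limma adjusted p = 8.93e-04). The nuclear RNAs Neat1 (4.38) and Pvt1 (3.93) were also higher in chromatin and the messenger RNAs B2m (-2.67), Actb (-2.33) and Eef1a1 (-2.17) lower, and these 7 directions were the same after scaling to the ERCC standards and after quantile normalization. Mitochondrial features held 0.0441, 0.0575 and 0.0962% of all counts in the chromatin libraries. In the nucleoplasm libraries they held 0.702, 0.554 and 0.553%, and the source of this difference was not tested.

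Of 12 atrial cardiomyocyte markers all 12 were above 0, and together they measured 445944, 453206 and 222234 normalized counts in the chromatin libraries and 287718, 301177 and 138120.4 in the nucleoplasm libraries, led in chromatin by Ryr2, the calcium release channel of the sarcoplasmic reticulum, and in nucleoplasm by Tnnt2, a cardiac troponin. In both fractions replicate 3 was the lowest, and Myh6, the atrial myosin heavy chain, measured 86442, 91739 and 13623 in chromatin and 61767, 59896 and 9379 in nucleoplasm. In these bulk libraries, fewer cells of a type and less RNA per cell cannot be told apart. The atrial markers differed widely in level. Ryr2 had means of 162434 in chromatin and 21795 in nucleoplasm, while Nppa had 20.7 and 76.6 and Sln 57.9 and 279. Their sum therefore says little about the low markers. The 5 fibroblast markers were all above 0 in at least 1 library and were led by the collagen gene Col1a1. They summed to 101764, 113724 and 117258 in chromatin and 217539, 212681 and 347926 in nucleoplasm, with replicate 3 the highest in each fraction. Col1a1 alone had means of 109925 in chromatin and 257260 in nucleoplasm. Pdgfra had 826 and 1670, Col1a2 126 and 236, Dcn 38.4 and 214, and Lum 0 and 0.674. Endothelial markers were above 0 for 3 of 4 genes, led by Kdr with Cdh5 at 0, and summed to 1814, 1942 and 1078 in chromatin and 3023, 2871 and 1788 in nucleoplasm. Macrophage markers were above 0 for 3 of 4, led by Cd68 with Adgre1 at 0, with sums of 77.2, 95.4 and 180.0 in chromatin and 76.8, 105 and 90.6 in nucleoplasm. Skeletal muscle markers were above 0 for 3 of 4, led by Myh4 with Myod1 at 0, and gave 256, 254 and 140.5 in chromatin and 398, 384 and 323 in nucleoplasm. Replicate 3 therefore stood apart on its markers in both fractions, and nucleoplasm replicate 1 stood apart on abundant short loci, so counts were also made without these libraries.

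Most of the loci were short and detected throughout. The median span was 442 bp, with quartiles of 267 and 2088 bp and a range from 174 to 221603 bp. Of the 1045 loci, 1000 were above 0 in all 6 libraries, 1024 in all 3 chromatin libraries and 1001 in all 3 nucleoplasm libraries, and 10 were above 0 in 1 library only. No locus was at 0 throughout chromatin, whereas 22 were at 0 throughout nucleoplasm. A read is taken here as 1 count estimated by StringTie. Of the 22 loci, 7 had a chromatin mean above the nucleoplasm floor of 3 reads a library (2.93 normalized counts). For the highest of these the fold was at least 7.05. Levels had a median of 121 normalized counts in chromatin (quartiles 56.2 and 447) and 68 in nucleoplasm (quartiles 22.7 and 208). The mean over 6 libraries was at least 10 for 997 loci, at least 100 for 523, at least 1000 for 143 and at least 100000 for 10.

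At the edge of the distance rule, MSTRG.4949, 10018 bp from Thoc3, was just inside with 24.4, 25.2 and 122 normalized counts in chromatin and 27.3, 21.6 and 56.5 in nucleoplasm. MSTRG.7111, 9968 bp from Ehhadh, was just outside with 143, 128 and 63.5 in chromatin and 46.5, 39.6 and 28.3 in nucleoplasm. At the edge of the detection rule, MSTRG.12403 had the lowest mean, 0.344, from values of 1.02 and 1.05 in chromatin replicates 1 and 2 and 0 in the other libraries. Each of these 2 values equals 1 estimated count.

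Called differences between the fractions were mostly toward chromatin. By limma, 562 of the 1045 loci were higher in chromatin at an adjusted p under 0.05, which is 53.8% beside 26.9% of all 35830 features tested, and 138 were lower, 13.2% beside 20.9%. More than 4-fold higher were 347 loci (33.2%, beside 15.7% of all features) and more than 4-fold lower were 21 (2.01%, beside 4.90%). Another 345 were not called in either direction. ERCC scaling gave 44 lower, 3 of them by more than 4-fold, and quantile normalization gave 175 and 49. Every chromatin library lay above every nucleoplasm library for 609 loci (58.3%, beside 31.5% of all features), and below for 180 (beside 23.8%). The median log2 fold change was 1.22, against 0.38 over all features, and it was 1.19 with the loci at 0 in nucleoplasm set to their bound. Within the pairs of same-numbered libraries the medians were 1.24, 1.22 and 1.18, against 0, 0 and 0.16 over all features. Because fold changes were computed on log2(normalized count + 1), they understate differences of the lowest loci.

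Gene-free loci nearer to coding genes served as the closest comparison. Of 703 such loci within 10 kb of a coding gene, 34.9% were higher in chromatin and 9.96% lower, with a median log2 fold change of 0.75. The difference between the near and the distal loci was not tested. Scaling mattered to the balance of directions: among called distal loci 80.3% were higher in chromatin with the deposited size factors, 93.5% after scaling to the ERCC standards and 72.1% after quantile normalization, beside 56.3%, 80.0% and 47.0% of all called features. With both libraries of replicate 3 left out, 622 loci were higher and 155 lower, with both libraries of replicate 1 left out 335 and 67, and with both of replicate 2 left out 368 and 80. Without nucleoplasm replicate 1 alone, 505 were higher and 110 lower. Replicate as a blocking factor gave 635 higher and 159 lower.

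Among called loci with a mean of at least 100, the largest rise toward chromatin was at MSTRG.8102, a locus at chr17:36231185-36231599 (minus strand, 415 bp), downstream of Rpp21, a subunit of ribonuclease P, by 24046 bp. It measured 34482, 46529.8 and 29907 normalized counts in the chromatin libraries and 348, 443 and 1136 in the nucleoplasm libraries. All chromatin values exceeded all nucleoplasm values, with a mean of 36973 ± 8587 against 642 ± 430.0 (SD, n = 3 each), log2 fold change 6.02 ± 0.46 (SE), limma adjusted p = 1.33e-04. A long-read transcript lay on its strand at 468 and 438 TPM, a transcript abundance scaled to the library, in the 2 long-read libraries.

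MSTRG.11404, at chr3:16566823-16578362 (plus strand, 11540 bp), measured 5147, 4562 and 4572 normalized counts in the chromatin libraries and 100.0, 86.3 and 129.7 in the nucleoplasm libraries. Its libraries were close within each fraction and far apart between fractions, 4760.4 ± 335 against 105 ± 22.2 (SD, n = 3 each), log2 fold change 5.50 ± 0.17 (SE), limma adjusted p = 2.28e-05. It sat in a stretch of 6 loci on the plus strand of chromosome 3. Of these, MSTRG.11405 (log2 fold change 4.62) and MSTRG.11406 (4.51) were also among the 8 largest rises toward chromatin. The span of MSTRG.11404 lies inside that of another of the 6, MSTRG.11403 (chr3:16537873-16623043), so these loci are not separate stretches. MSTRG.12451, at chr4:3089462-3091523 (plus strand, 2062 bp) and upstream of the vomeronasal receptor gene Vmn1r2, measured 310.0, 229.5 and 126 normalized counts in the chromatin libraries and 6.06, 4.79 and 6.52 in the nucleoplasm libraries. Chromatin exceeded nucleoplasm in every library although chromatin replicate 3 was lower than the other 2 (log2 fold change 4.95 ± 0.40 (SE), limma adjusted p = 1.60e-04).

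MSTRG.16694, at chr7:62525603-62534505 (minus strand, 8903 bp) and 61093 bp upstream of Peg12, a paternally expressed imprinted gene, measured 930.0, 918 and 1814 normalized counts in the chromatin libraries and 35.4, 20.4 and 85.5 in the nucleoplasm libraries. Replicate 3 was the highest in both fractions, and the fractions did not overlap (log2 fold change 4.83 ± 0.56 (SE), limma adjusted p = 7.15e-04). MSTRG.4586, at chr12:119783899-119786606 (plus strand, 2708 bp) upstream of Tmem196, measured 636, 729 and 902 normalized counts in the chromatin libraries and 23.2, 25.2 and 29.7 in the nucleoplasm libraries. Its fractions did not overlap either (log2 fold change 4.80 ± 0.19 (SE), limma adjusted p = 2.58e-05). Neither of these loci was overlapped by a long-read transcript. The remaining locus of the 8, MSTRG.18053 (log2 fold change 4.58), belongs to a cluster on chromosome 8.

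Loci lower in chromatin were fewer and in part copies of genes. The 138 of them were 90 of the 560 loci with a span up to 500 bp (16.1%), 31 of the 141 above that and up to 1000 bp (22.0%) and 17 of the 177 above that and up to 5000 bp. Of the other assembled loci of the autosomes, 43.3% were lower up to 500 bp and 65.4% above that and up to 1000 bp. Their shares were 47.1% over 1000 and up to 2000 bp and 40.2% over 2000 and up to 5000 bp. MSTRG.13984, at chr5:30220803-30221118 (minus strand, 316 bp) and 11463 bp upstream of Selenoi, a phospholipid-synthesis enzyme, measured 111, 133 and 149 normalized counts in the chromatin libraries and 927, 930.1 and 999 in the nucleoplasm libraries. Every nucleoplasm library was above every chromatin library (log2 fold change -2.86 ± 0.14 (SE), limma adjusted p = 3.42e-05).

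MSTRG.2448, at chr11:12648225-12648441 (plus strand, 217 bp) near Cobl, an actin nucleator, measured 98.6, 126 and 178 normalized counts in the chromatin libraries and 633, 845 and 1079 in the nucleoplasm libraries. The fractions were again separate, with replicate 3 the highest in each (log2 fold change -2.67 ± 0.29 (SE), limma adjusted p = 5.26e-04). MSTRG.16092, at chr7:4413006-4413433 (plus strand, 428 bp), lies over the RefSeq pseudogene Atp6v0c-ps1 and measured 87.4, 124 and 63.5 normalized counts in the chromatin libraries and 631, 616 and 454 in the nucleoplasm libraries. It was lower in every chromatin library (log2 fold change -2.65 ± 0.28 (SE), limma adjusted p = 4.74e-04). MSTRG.15844, at chr6:122644538-122644747 (plus strand, 210 bp), lies over the RefSeq pseudogene Gm8460 near Dppa3, a maternal-effect gene, and measured 41.7, 52.4 and 32.3 normalized counts in the chromatin libraries and 236, 242 and 239 in the nucleoplasm libraries. Its nucleoplasm values were nearly alike, and all were above chromatin (log2 fold change -2.51 ± 0.22 (SE), limma adjusted p = 2.31e-04).

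MSTRG.4257, 10049 bp from Susd6 (log2 fold change -2.66), and MSTRG.4476 near Degs2, a sphingolipid enzyme (-2.47), completed the 8 largest called falls together with 2 very abundant loci given next. The lowest log2 fold change of all, -7.06 ± 3.62 (SE), was that of MSTRG.1269, a locus of uneven chromatin libraries (0, 18535 and 3925, against 93364, 32770.4 and 57056 in nucleoplasm) that limma did not call (adjusted p = 0.165). Of the 63 loci over a RefSeq pseudogene, 41 were lower in chromatin and 9 higher, beside 20.9% and 26.9% of all features. The median log2 fold change of the 63 was -1.09. Reads of 50 bp from a parent gene can align to such copies, so these levels are uncertain.

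A small set of short loci carried most of the counts and varied widely among nucleoplasm libraries. MSTRG.15055, at chr6:3200767-3201803 (plus strand, 1037 bp), had the highest mean of all the loci and measured 18011, 107213 and 7918 normalized counts in the chromatin libraries and 11732626, 886561 and 2232289.7 in the nucleoplasm libraries. It was lower in chromatin in every library, though nucleoplasm replicate 1 was over 10-fold above replicate 2 (log2 fold change -6.84 ± 1.28 (SE), limma adjusted p = 0.00549). MSTRG.9023, at chr18:68692062-68692317 (plus strand, 256 bp) and over the RefSeq gene Gm30821, measured 4199.9, 57349 and 3206 normalized counts in the chromatin libraries and 1738884, 89266 and 241782 in the nucleoplasm libraries. Its nucleoplasm libraries also differed by over 10-fold, again with replicate 1 the highest, and its chromatin replicate 2 stood above the other 2 (log2 fold change -5.19 ± 1.498 (SE), limma adjusted p = 0.0305). With replicate as a blocking factor in limma the adjusted p of MSTRG.9023 was 0.0683, and leaving out both libraries of replicate 1 gave MSTRG.15055 a log2 fold change of -5.59 at a limma adjusted p of 0.0693. MSTRG.9023 also lost its call without chromatin replicate 1 or 3 (limma adjusted p = 0.113 and 0.100) and without nucleoplasm replicate 1 or 3 (0.0762 and 0.0664), without both libraries of replicate 1 or 3 (0.216 and 0.161), and in edgeR (0.0625, or 0.145 with the block).

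The other 6 of the 8 most abundant loci went the opposite way in nucleoplasm replicate 1. MSTRG.3578, at chr11:109011644-109012105 (plus strand, 462 bp) over the RefSeq gene Gm36876 and nearest to the Wnt pathway gene Axin2, measured 578025, 602106 and 960532 normalized counts in the chromatin libraries and 4732, 2929905 and 561352 in the nucleoplasm libraries. Nucleoplasm replicate 1 was the lowest and replicate 2 the highest of all 6 libraries, so the fractions overlapped and no difference was called (log2 fold change 1.81 ± 2.29 (SE), limma adjusted p = 0.533). MSTRG.11361, at chr3:5860335-5860872 (minus strand, 538 bp), measured 592699, 671788 and 826064 normalized counts in the chromatin libraries and 6535, 2712311 and 756369 in the nucleoplasm libraries, with the same order (log2 fold change 1.54 ± 2.17 (SE), limma adjusted p = 0.577). MSTRG.1268, at chr1:191120868-191121174 (minus strand, 307 bp) over the RefSeq gene Gm46178 near the transcription factor gene Batf3, measured 95120.5, 100281 and 147817 normalized counts in the chromatin libraries and 54.6, 477901 and 86184 in the nucleoplasm libraries. MSTRG.1972, at chr10:82955116-82955516 (plus strand, 401 bp) near Chst11, a chondroitin sulfotransferase gene, measured 135512, 141200.1 and 104338 normalized counts in the chromatin libraries and 454, 388106 and 102988 in the nucleoplasm libraries. Both of the latter were likewise highest in nucleoplasm replicate 2 and lowest in nucleoplasm replicate 1, with limma adjusted p = 0.470 and 0.475. MSTRG.17584 on chromosome 8 and MSTRG.15292 on chromosome 6 showed this order too, with limma adjusted p = 0.525 and 0.525. The mean over nucleoplasm libraries exceeded the chromatin mean for all 6 while the log2 fold change was positive, and without nucleoplasm replicate 1 the log2 fold change of each was negative.

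Among loci with a mean of at least 100, 17 of 523 (3.25%) differed by over 10-fold among nucleoplasm libraries, beside 332 of 15736 features in all (2.11%) and 81 of 13744 assembled loci on autosomes (0.589%). Among chromatin libraries 5 did so (0.956%), beside 1.93% of features and 0.298% of those assembled loci. The median span of the 17 was 373 bp, nucleoplasm replicate 2 was the highest in 13 of them and replicate 1 the lowest in 12, and limma called 0 higher in chromatin (1 at an unadjusted p under 0.05) and 2 lower. DESeq2 and edgeR also called 0 higher, with 0 and 1 at an unadjusted p under 0.05. The ribosomal RNA region on chromosome 17, outside these loci, was uneven in a like order, with 9816985, 9160865 and 6428334 normalized counts in chromatin and 2711322, 28857090.0 and 10971925 in nucleoplasm for the assembled locus there (MSTRG.8117). Whether ribosomal RNA sequence contributed to these loci was not tested.

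These few loci decided the share of all normalized counts that fell in the distal loci. The share was 3.04, 3.27 and 4.32% in the chromatin libraries and 13.5, 8.55 and 5.39% in the nucleoplasm libraries, lower in every chromatin library (log2 difference -1.29, exact two-sided permutation p = 0.1, the smallest that 3 against 3 libraries can give). MSTRG.15055 alone held 11.4% of nucleoplasm replicate 1. Without the 17 uneven loci the direction turned, with shares of 1.13, 1.10 and 1.36% in chromatin and 0.387, 0.282 and 0.451% in nucleoplasm. Those 17 loci were chosen after their values were seen, so this share carries no test. Limma had called 0 of the 17 higher in chromatin and 2 lower. Leaving them out of the count, without a new fit, therefore had to give 562 loci higher and 136 lower.

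Long loci were mostly on the chromatin side. Of 96 loci with a span over 10000 bp, 76 (79.2%) were higher in chromatin and 0 lower, 70 of them by more than 4-fold, with a median log2 fold change of 3.09. Among 71 loci over 5000 and up to 10000 bp, 59 (83.1%) were higher and 0 lower. These counts of 0 were by limma, and at an unadjusted p under 0.05 limma, DESeq2 and edgeR each also had 0 lower in both classes. The share higher in chromatin was 44.1% of the 560 loci up to 500 bp, 47.5% of the 141 loci above that and up to 1000 bp, 61.0% of the 77 above that and up to 2000 bp and 66.0% of the 100 above that and up to 5000 bp. Over the other assembled loci of the autosomes the same classes had 20.3, 13.6, 23.3, 27.9, 29.2 and 36.0% higher, from the shortest to the longest. Of those other loci 40.9% over 5000 and up to 10000 bp and 30.9% over 10000 bp were lower. Long loci also held more reads, with a median mean of 61.7 normalized counts up to 500 bp and 1409 over 10000 bp. The 167 loci over 5 kb held 0.781, 0.722 and 0.932% of all counts in chromatin and 0.111, 0.0867 and 0.140% in nucleoplasm.

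The longest, MSTRG.14162 at chr5:58577501-58799103 (plus strand, 221603 bp), ran over the RefSeq long noncoding RNA gene Gm40306, 444271 bp downstream of Pcdh7, a cell-adhesion protocadherin, and measured 47196, 38804 and 36421 normalized counts in the chromatin libraries and 4364, 3418 and 4187 in the nucleoplasm libraries. Every chromatin library was far above nucleoplasm, 40807 ± 5659.9 against 3989.9 ± 503 (SD, n = 3 each), log2 fold change 3.35 ± 0.15 (SE), limma adjusted p = 2.76e-05. Long-read transcripts lay on both of its strands, with 128 and 70.9 TPM on its own. Length did not go with abundance throughout. MSTRG.9922, at chr2:17061614-17166869 (minus strand, 105256 bp) near Nebl, a Z-disc protein gene of the heart, measured 60.0, 53.4 and 51 normalized counts in the chromatin libraries and 20.2, 18 and 11.6 in the nucleoplasm libraries, and was higher in chromatin (log2 fold change 1.70 ± 0.31 (SE), limma adjusted p = 0.00514), though not after quantile normalization (limma adjusted p = 0.162).

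MSTRG.7146, at chr16:26251918-26339229 (plus strand, 87312 bp) near the tight-junction gene Cldn1 and over the RefSeq gene Gm41436, measured 14.2, 15.7 and 15.6 normalized counts in the chromatin libraries and 8.08, 5.99 and 3.62 in the nucleoplasm libraries. Each chromatin library was above each nucleoplasm library at low counts (log2 fold change 1.28 ± 0.41 (SE), limma adjusted p = 0.0444), and limma's adjusted p with replicate as a blocking factor was 0.0634. Without chromatin replicates 1, 2 or 3 or nucleoplasm replicates 2 or 3, each in turn, its limma adjusted p was 0.0792, 0.0993, 0.0749, 0.0908 and 0.0774, and without both libraries of replicates 1, 2 and 3 it was 0.0944, 0.186 and 0.0678. DESeq2 and edgeR did not call it (adjusted p = 0.138 and 0.101), nor did limma after quantile normalization (0.974). MSTRG.11403, at chr3:16537873-16623043 (plus strand, 85171 bp), measured 2479, 2148 and 2480.1 normalized counts in the chromatin libraries and 161, 127 and 182 in the nucleoplasm libraries, with fractions far apart (log2 fold change 3.92 ± 0.16 (SE), limma adjusted p = 2.51e-05).

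Many of the loci had another nearby. In all, 432 of the 1045 fell in 160 clusters whose neighbouring spans were at most 20 kb apart, while 613 stood alone. Of the clusters 101 held 2 loci, 39 held 3 and 11 held 4. All loci were on 1 strand in 124 clusters, every locus was higher in chromatin in 79, and 2 clusters held loci called in opposite directions. Loci in clusters were higher in chromatin in 64.4% of cases and loci alone in 46.3%, beside 26.9% of all features. Neighbouring loci may share a transcript, so clustered loci are not independent.

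The cluster with the highest summed chromatin level ran over chr8:82594496-82736140, with 13 loci on the minus strand, all higher in chromatin, and the zinc finger gene Zfp330 as the nearest coding gene. Its summed level was 92190.1, 81187 and 253028 normalized counts in the chromatin libraries and 5119, 3863 and 16153 in the nucleoplasm libraries. Replicate 3 was the highest in both fractions. Log2 fold changes of the 13 loci ran from 3.53 to 4.58, with limma adjusted p from 0.00141 to 0.00474. With both libraries of replicate 1 left out, 11 of the 13 lost the call, with limma adjusted p up to 0.0659. The log2 fold changes of the 13 then ran from 3.76 to 4.51. Within it MSTRG.18052 spanned 35274 bp and measured 40852, 36427 and 112774 in chromatin and 2429, 1782 and 7211 in nucleoplasm. Zfp330 itself had means of 734 and 1207 in the same fractions. MSTRG.18041, the next locus toward lower coordinates, at chr8:82515631-82570751 and nearest to the cytokine gene Il15, was also on the minus strand and measured 2894, 2592 and 6927 in chromatin and 158, 117 and 379 in nucleoplasm; this locus was chosen after its values were seen.

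Another cluster, at chr3:16453243-16691630, held 6 loci on the plus strand downstream of Ythdf3, a reader of methylated adenosine, with spans of 11540 to 85171 bp and all 6 higher in chromatin. Together they measured 77905, 66607 and 69057 in chromatin and 6169, 5236 and 6471 in nucleoplasm, 11.9-fold apart by means, and here the 3 libraries of a fraction were near one another. Of the 6 loci, MSTRG.11404 lies inside the span of MSTRG.11403. Ythdf3 had means of 49217 in chromatin and 13702 in nucleoplasm. The cluster at chr3:96497791-96515022 held 7 loci and overlapped 5 transfer RNA genes of RefSeq near Hfe2, an iron-regulation gene, and summed to 10365, 8856 and 5142 in chromatin and 3514, 2826 and 2168 in nucleoplasm. There replicate 3 was the lowest in each fraction, and 5 of the 7 loci were higher in chromatin.

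The cluster with the most loci, 18 at chr6:47652126-47752974 between Ezh2, a histone methyltransferase, and Pdia4, a protein disulfide isomerase of the endoplasmic reticulum, overlapped repeated copies, among them Rn4.5s and the RefSeq genes Gm40363, Gm40364, Gm40365, Gm40367 and Gm40369. Its 11 minus-strand loci spanned 174 to 429 bp and were all higher in chromatin, with log2 fold changes from 1.53 to 1.65. These calls depended on the libraries used: 10 of the 11 lost theirs without chromatin replicate 1 (limma adjusted p from 0.0532 to 0.0689), without nucleoplasm replicate 1 (0.0610 to 0.0840) or without nucleoplasm replicate 2 (0.0597 to 0.0856), 1 did without chromatin replicate 3 (0.0520), and all 11 did without both libraries of replicate 1 (0.0502 to 0.168) or of replicate 2 (0.0565 to 0.0878). The log2 fold changes of the 11 ran from 1.59 to 1.81 without chromatin replicate 1 and from 1.17 to 1.38 without chromatin replicate 3. Without nucleoplasm replicate 1 or 2 they ran from 1.43 to 1.57 and from 1.41 to 1.60. Without both libraries of replicate 1 or 2 they ran from 1.47 to 1.73 and from 1.67 to 1.75. After quantile normalization 10 of the 11 were not called (limma adjusted p from 0.189 to 0.286), and the log2 fold changes of the 11 ran from 0.68 to 1.16. In chromatin replicate 1 MSTRG.15319 measured 97.6 normalized counts and the other 10 lay between 47.8 and 60.0. Reads shared among copies cannot be assigned, so these levels are uncertain. The 7 plus-strand loci had chromatin means of 1.72 to 2.77 normalized counts and nucleoplasm means of 0.978 to 2.50, at or under the floor of 3 reads, and limma called 0 of them, as did DESeq2 and edgeR, with 0 at an unadjusted p under 0.05 in each. After quantile normalization limma called 1 of these 7, MSTRG.15311, lower (adjusted p = 0.0486), and without the variance trend it called MSTRG.15313 and MSTRG.15315 higher (adjusted p = 0.0172 and 0.0381). In sum the cluster measured 666, 548 and 1185 in chromatin and 216, 216 and 336 in nucleoplasm.

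Replicate 3 differed from the other cultures at a number of these loci. Among the 523 with a mean of at least 100, 50 (9.56%) were over 2-fold higher in replicate 3 than in either other replicate in both fractions, beside 1.77% of 15736 features in all, and 1 (0.191%) was over 2-fold lower, beside 1.04%. They lay on 16 chromosomes, and 12 were in the Zfp330 cluster. Of the 50, 38 were called higher in chromatin, beside 53.8% of all 1045 loci and 26.9% of all features. MSTRG.1521, at chr10:38059341-38076311, measured 2804, 2627 and 13152 in chromatin and 2216, 2093 and 6973 in nucleoplasm. Replicate 3 was the highest of each fraction there. MSTRG.11537, at chr3:39174280-39182989 near the cadherin gene Fat4, was the locus that was lower, with 1813, 1779 and 743 in chromatin and 483, 417 and 144 in nucleoplasm. These 2 loci were chosen after their values were seen, and the part of the lower atrial markers of replicate 3 in this pattern was not tested.

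The nearest coding gene lay a median of 55405 bp away (quartiles 21455 and 183265 bp, range 10018 to 1930176 bp), and the 1045 loci shared 693 different nearest genes. Of the loci, 227 were downstream of the gene on its strand (61.7% higher in chromatin), 239 downstream on the opposite strand (51.0%), 279 upstream on the opposite strand (52.3%) and 300 upstream on its strand (51.3%). By distance, 45.4% of 238 loci at 10 to 20 kb were higher in chromatin, and 48.1% of 260 at 20 to 50 kb. Higher were 54.1% of 172 at 50 to 100 kb, 65.2% of 270 at 100 to 500 kb and 57.1% of 105 beyond 500 kb. Over all features 26.9% were higher. The loci downstream on the strand of their gene include the 13 near Zfp330 and the 6 near Ythdf3, all higher in chromatin. These shares therefore rest in part on clustered loci.

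The nearest gene was listed in the table for 1018 loci, and 861 had a nearest gene above 0 in chromatin. Of all 1045 loci, 335 stood beside a gene under 10 normalized counts there, 308 of them beside a listed gene. Per kb of span, the median level in chromatin was 231 normalized counts for the loci and 10.5 for their nearest genes, and 832 loci were above their nearest gene. Genes not listed were taken as 0, and among the 1018 loci with a listed gene 805 were above it. The loci had to be above 0 and the genes did not, and gene spans include introns that dilute their per-kb levels, so the loci are favored by both and the difference was not tested. Across the 1045 loci, Spearman's rho between the chromatin level of a locus and of its nearest gene, both per kb, was -0.08, and in the 3 chromatin libraries it was -0.13, -0.11 and -0.02. Over the 1018 loci it was -0.09, with -0.14, -0.12 and -0.03 in the 3 libraries. These points share their libraries, and clustered loci share a gene. A list of 58 cardiac genes stood beside 4 of the loci.

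Of these 4, a pair lay upstream of Zfpm2, a cofactor of GATA factors in heart development. MSTRG.6343, at chr15:40643751-40644260 (minus strand, 510 bp), measured 104, 76.5 and 126 normalized counts in the chromatin libraries and 6.06, 4.79 and 7.25 in the nucleoplasm libraries. Its neighbour MSTRG.6342, at chr15:40640230-40640917 (minus strand, 688 bp), measured 81.3, 66 and 69.7 normalized counts in the chromatin libraries and 4.04, 4.79 and 4.35 in the nucleoplasm libraries. Both were well separated between fractions, with log2 fold changes of 3.86 ± 0.33 and 3.76 ± 0.30 (SE) and limma adjusted p = 2.13e-04 and 1.56e-04, and Zfpm2 had means of 36605 in chromatin and 4974 in nucleoplasm.

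MSTRG.17843, at chr8:57373544-57374241 (minus strand, 698 bp) downstream of Hand2, a basic helix-loop-helix factor of the developing heart, measured 52.9, 49.3 and 66.6 normalized counts in the chromatin libraries and 8.08, 12 and 21.7 in the nucleoplasm libraries. Chromatin was above nucleoplasm in every library (log2 fold change 2.03 ± 0.42 (SE), limma adjusted p = 0.00809; 0.0586 after quantile normalization), while Hand2 itself had means of 2454 in chromatin and 11884 in nucleoplasm. MSTRG.5176, at chr13:83425829-83426049 (plus strand, 221 bp) upstream of the cardiac transcription factor gene Mef2c, measured 198, 237 and 313 normalized counts in the chromatin libraries and 100.0, 119.9 and 199 in the nucleoplasm libraries. Nucleoplasm replicate 3 was level with chromatin replicate 1, so the fractions met, and the difference was not called (log2 fold change 0.87 ± 0.31 (SE), limma adjusted p = 0.0624), although limma's adjusted p was 0.00542 once replicate was a blocking factor and 0.0150 without nucleoplasm replicate 3.

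Long reads covered part of the set. A long-read transcript lay on the same strand only for 283 loci, on the opposite strand only for 125 and on both strands for 140, while 1 met an unstranded transcript only and 496 met none. Counting both kinds, 423 loci (40.5%) had a transcript on their strand. The long-read assembly was not corrected for strand, so opposite-strand overlap and the same RNA cannot be told apart, whereas the short-read counts are stranded. The share with a same-strand transcript was 24.3% for spans up to 500 bp and 86.5% for spans over 10000 bp, and 76% for loci with a chromatin mean over 1000. It was 44.1% of the loci higher in chromatin, 40.9% of those not called and 24.6% of those lower. Long-read libraries were made from chromatin only.

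In 58 cases 1 long-read transcript overlapped at least 2 loci on their strand, which joined 75 loci. The most joined was 5, by a transcript of 10409 bp at chr3:96504897-96515305 on the minus strand with 239.7 and 354 TPM, in the transfer RNA cluster. A transcript of 10449 bp at chr8:82644307-82654755 on the minus strand joined 3 loci of the Zfp330 cluster, at 2.59 and 2.75 TPM. For 4 loci a same-strand transcript also overlapped a coding gene on that strand, so those loci and the gene were joined in 1 long-read model.

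Overlap with RefSeq divided the set. The 804 loci over no RefSeq gene had 466 higher and 87 lower in chromatin, with a median log2 fold change of 1.35, and the 241 over a RefSeq gene had 96 and 51, with 0.79. By class, 133 loci lay over a long noncoding RNA gene (66 higher, 8 lower) and 63 over a pseudogene as given above. For 35 it was a protein-coding model (17 higher, 1 lower). Part of these 35 lie in the cluster of repeated copies near Ezh2. Of that part, MSTRG.15306, MSTRG.15310, MSTRG.15314, MSTRG.15316 and MSTRG.15318 were called higher, at levels given above as uncertain. For 17 loci it was a transfer RNA gene (2 higher and 0 lower by limma). Among these 17, limma, DESeq2 and edgeR each also had 0 lower at an unadjusted p under 0.05. The 5′ end of 40 loci fell in the promoter window of a RefSeq gene on the same strand, taken as 300 bases around its start, and for 33 of them it was the very base at which the RefSeq gene starts. Known transcripts guided the assembly and the table lists RefSeq transcripts, so a shared start may come from the guide and is no separate evidence of where transcription starts. Of these 40 loci 22 were higher in chromatin and 1 lower. Beside the counts of this paragraph, 53.8% of all 1045 loci were higher and 13.2% lower. Over all features the shares were 26.9% and 20.9%.

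To show the annotated start sequence at such loci, the windows of the 4 with the highest mean among those higher in chromatin are printed from RefSeq (build GRCm38.p6), 5′ to 3′ on the strand of the gene, with matches to TATAAA on either strand in capitals; these were chosen after their values were seen. MSTRG.4274, which spans 53543 bp and begins at Gm30799, measured 2993, 2823 and 2679 in chromatin and 396, 421 and 402 in nucleoplasm (window chr12:82069278-82069577, plus strand). MSTRG.18775, which spans 18109 bp and begins at Gm40509, measured 2209, 1995 and 2467 in chromatin and 191, 170.2 and 248 in nucleoplasm (chr9:24945030-24945329, minus strand). MSTRG.14479, which spans 18823 bp and begins close to AB010352, measured 1634, 1548 and 1797 in chromatin and 461, 434 and 486 in nucleoplasm (chr5:109866461-109866760, plus strand). In all 3, every chromatin library was above every nucleoplasm library. MSTRG.19380, which spans 8418 bp and begins at Gm32133, measured 801, 663 and 1679.7 in chromatin and 45.5, 39.6 and 115 in nucleoplasm (chr9:95445319-95445618, minus strand), likewise higher in chromatin and with replicate 3 the highest in each fraction. The motif TATAAA, read as TTTATA on the other strand, occurred on either strand in a window of 3 of the 40 loci (7.5%). It occurred in 4473 of 32851 RefSeq promoter windows (13.6%). MSTRG.4274 and MSTRG.12818 had more than 1 window, so the first share counts loci and the other counts windows. A match is a description of the letters only.
Gm30799: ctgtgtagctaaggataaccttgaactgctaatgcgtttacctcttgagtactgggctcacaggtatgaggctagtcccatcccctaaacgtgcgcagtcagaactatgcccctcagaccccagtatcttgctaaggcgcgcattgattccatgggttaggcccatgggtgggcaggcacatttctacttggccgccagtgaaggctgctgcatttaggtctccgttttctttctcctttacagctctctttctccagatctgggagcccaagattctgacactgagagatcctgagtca
Gm40509: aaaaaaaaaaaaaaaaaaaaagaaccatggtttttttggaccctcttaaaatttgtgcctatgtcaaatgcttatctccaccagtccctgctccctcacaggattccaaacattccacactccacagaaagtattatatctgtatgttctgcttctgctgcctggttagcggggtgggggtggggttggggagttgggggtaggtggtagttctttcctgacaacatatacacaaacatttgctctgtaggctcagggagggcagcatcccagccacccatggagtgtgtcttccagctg
AB010352: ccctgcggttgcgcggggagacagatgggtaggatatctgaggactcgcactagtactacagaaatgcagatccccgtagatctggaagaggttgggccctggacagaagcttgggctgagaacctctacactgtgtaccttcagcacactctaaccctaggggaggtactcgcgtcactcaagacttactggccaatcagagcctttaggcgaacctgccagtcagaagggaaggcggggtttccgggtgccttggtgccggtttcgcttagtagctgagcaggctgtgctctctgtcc
Gm32133: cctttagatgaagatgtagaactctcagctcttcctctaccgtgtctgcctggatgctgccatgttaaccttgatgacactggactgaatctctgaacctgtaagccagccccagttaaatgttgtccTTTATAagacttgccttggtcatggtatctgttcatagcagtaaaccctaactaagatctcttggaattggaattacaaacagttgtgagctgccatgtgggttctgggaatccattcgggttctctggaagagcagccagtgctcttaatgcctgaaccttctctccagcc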

How the data were processed

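The 6 short-read libraries were aligned by the authors to mm10 with the ERCC sequences (HISAT2 2.1.0), assembled with StringTie over both fractions and counted by strand. The authors deposited a coverage signal per locus, namely counts of StringTie's re-estimated abundance divided by DESeq2 size factors. Divided by the smallest value above 0 of its column, 100% of values were within 0.001 of a whole number. These whole numbers summed to between 91657034 and 121773350 a library. They are counts estimated by StringTie, so their sum is not a measured number of reads. The authors also deposited TPM values for the long-read assembly (minimap2, StringTie).

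Distances were taken to GENCODE M21, and the loci and lists were chosen with earlier results of these data known. Fractions were compared with limma 3.58.1 in R 4.3.3, whose prior variance followed the mean, on log2(normalized count + 1) for all 35830 features above 0 (two-sided, Benjamini-Hochberg). DESeq2 1.42.0 and edgeR 4.0.16 were alternatives on the recovered whole counts. They called 8633 and 7735 features higher in chromatin and 7685 and 7657 lower. The fits were also run on simulated data, whose outcome is not given here and supports no statement above. Named loci were the 8 highest means, the 8 largest rises and 8 largest falls called past 4-fold with a mean of at least 100 and 1 direction in the 3 pairs, the 4 longest, the 4 highest per kb, the largest clusters and the cardiac neighbours; the loci at the edges of the rule for the set, that of the lowest log2 fold change and the assembled ribosomal RNA locus serve as reference points, and other loci outside this rule are named as chosen after their values were seen. Markers were lists of atrial, fibroblast, endothelial, macrophage and skeletal muscle genes. Same-numbered libraries deviated together over features with a mean of at least 10 (r = 0.119, 0.102 and 0.249 for replicates 1, 2 and 3). Over all features r was 0.0975, 0.0883 and 0.222. In unlike-numbered pairs at a mean of at least 10, r was 0.0631 and 0.0357 between replicates 1 and 2. With replicate 3 it ran from -0.158 to -0.119. Replicates 1 and 2 were thus told apart less clearly than replicate 3. The replicate number was a block in an alternative. The main limma p-values treat the libraries as unpaired, with a variance drawn toward the trend over all features. They measure the spread among the 3 libraries of each fraction, not that of the difference within a culture. Sequence windows at the 5′ ends of all loci were not analysed here; RefSeq promoter windows were used instead. No column was without a sample. A result at 1 withheld item is not reported here.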

Additional observations from a re-analysis of the deposited data

How the results depend on the processing

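Loci higher in chromatin outnumbered loci lower under every alternative run, and the alternatives that leave out both libraries of a replicate, the uneven loci, the most abundant features of the set, loci over RefSeq genes or unlisted genes, and the median over loci above 0 in all 3 libraries of a fraction, were chosen after seeing the data. The counts of 562 higher and 138 lower became 636 and 44 with ERCC scaling, 452 and 175 with quantile normalization, 560 and 135 with DESeq2, 509 and 136 with edgeR, and, over the 547 loci beyond 50 kb, 329 and 74. Without RefSeq genes 87 were lower. More than 4-fold higher were 214 loci beyond 50 kb. More than 4-fold lower were 3 with ERCC scaling, 49 with quantile normalization, 11 beyond 50 kb and 9 without RefSeq genes. Leaving out libraries gave 335 to 622 higher and 67 to 155 lower. ERCC scaling moved the median log2 fold change of all features by 0.46 and quantile normalization by -0.37.

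The median of 1.22 was 1.32 and 0.99 with pseudocounts of 0.1 and 10, 1.91 with ERCC scaling, 0.76 with quantile normalization, 1.46 beyond 50 kb, 1.12 beyond 5 kb, 1.26 for loci above 0 in all 3 libraries of a fraction, 1.35 without RefSeq genes, and 1.05 to 1.32 without a library or replicate. The log2 difference in share, -1.29, was -1.51 with the 20 most abundant features left out of the total, as planned, and turned to 0.65 with them left out of the loci as well and to 1.70 without the 17 uneven loci. The relation to the nearest gene was -0.0161 in nucleoplasm and -0.0884 over the 1018 loci whose gene was listed.

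With the replicate block, 635 loci were higher and 159 lower, and in edgeR 585 and 153. In limma it ended the calls of MSTRG.9023 and MSTRG.7146, gave one to MSTRG.5176 and changed no other among the 30 loci named singly, nor among the 31 of the 2 largest clusters. Of those 31, 24 were called, and 14 kept a call toward chromatin with quantile normalization, without chromatin replicate 1 and without nucleoplasm replicate 1 or 2, 23 without chromatin replicate 3, and 2 and 13 without both libraries of replicates 1 and 2. Without the trend 2 more were called, MSTRG.15313 and MSTRG.15315, both higher. Over 570 values of the 30 loci, 509 kept direction and call, 31 lost the call, 6 gained it and 24 turned. The turned log2 fold changes under DESeq2 and edgeR were -0.71 and -0.78 for MSTRG.3578, -0.73 and -0.82 for MSTRG.11361, -0.66 and -0.73 for MSTRG.17584, -0.65 and -0.72 for MSTRG.15292, -0.72 and -0.79 for MSTRG.1268, and -0.37 and -0.45 for MSTRG.1972. Leaving out libraries gave these 6 loci, in that order, -0.89 to 3.85, -1.05 to 3.31, -0.75 to 3.77, -0.78 to 3.82, -0.86 to 5.76 and -0.72 to 4.20. The turns came without nucleoplasm replicate 1 or both libraries of replicate 1. The cause was not tested. Requiring no overlap with annotated transcripts of the same table left the same 1045 loci.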
